A study of Mus musculus with 3 samples.

Results

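The genes described here are the potassium channel genes of the mouse dorsal root ganglion (DRG), the sensory ganglion whose neurons send axons to the periphery and the spinal cord. They were taken as every gene whose symbol is Kcn followed by letters and a number, and 92 of the 32227 genes in the count tables had such a symbol. Of these, 77 had 100 or more unique molecular identifiers (UMIs, tags that count captured transcripts) in the nuclei kept, 15 had 1 to 99, and none was absent. Only the 77 are reported singly. Kcna5 with 95 UMIs and Kcnj8 with 92 lay just under that limit, and Kcnmb3 with 109 and Kcne4 with 118 lay just over it. Potassium channels set the resting potential of a neuron and end its action potentials, and in glia they take up the potassium that active neurons release. The members include voltage-gated subunits (Kcna, Kcnb, Kcnc, Kcnd, Kcnh and Kcnq), silent subunits that work only in mixed voltage-gated channels (Kcnf, Kcng, Kcns and Kcnv), inward rectifiers (Kcnj), leak channels with a pair of pore domains (Kcnk), large- and small-conductance and sodium-opened channels (Kcnma, Kcnn, Kcnt and Kcnu), and auxiliary subunits (Kcnab, Kcne, Kcnip and Kcnmb).

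Nuclear RNA was sequenced from L3 to L5 DRG of C57BL/6 mice, in 1 library from adult mice of 3 months and 2 libraries from aged mice of 21 months, with no treatment in the sample labels. The number of mice behind a library was not stated, so that p-values do not measure the spread between mice. In class and subtype tests, with the library as a block, they measure how differences between groups of nuclei vary between libraries. In age tests within a group, the only replicates were the 2 aged libraries. The ages used are those of the sample labels, with which the design text of the series differs for aged mice. A barcode counted as a nucleus when over 1000 genes were detected, which left 11518 in adult replicate 1, 5130 in aged replicate 1 and 2611 in aged replicate 2, with a median of 3269 to 4900 UMIs per nucleus, and pairs of libraries shared at most 1 of them. All libraries were labelled male, but Xist, the RNA of the inactive X chromosome, was found in 66.3% to 85.5% of nuclei of each library and Y-linked genes in 10.95% to 14.9%. The study's methods list aged mice as female in one place and name both sexes at either age in another. The sex of the mice in a library therefore cannot be taken from its label, and the part of sex in the differences between ages was not tested.

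Nuclei were clustered with every potassium channel gene left out and named from marker genes, so that the members took no part in setting the classes. The 9 classes with 20 or more nuclei in every library were neuron-like, satellite glial cell (SGC)-like, a glial cluster with markers of several glia (glial cluster 10), non-myelinating Schwann cell (NMSC)-like, myelinating Schwann cell (MSC)-like, fibroblast-like, endothelial-like, macrophage-like and B lymphocyte-like. Neuron-like nuclei numbered 4383, 2354 and 1282 and SGC-like nuclei 3406, 443 and 229 in adult replicate 1, aged replicate 1 and aged replicate 2, and values below follow this order of libraries. Levels are in CPM, the UMIs of a gene scaled to 1e6 UMIs of the class in a library. Nuclear counts favour long genes, so a gene was compared between groups of nuclei and genes were not ranked against each other. Free RNA was read in the same unit from barcodes with 10 to 100 genes. Called means an adjusted p under 0.05 in the quasi-likelihood test of edgeR, adjusted by Benjamini-Hochberg over every gene tested, and fold changes are on the log2 scale with their standard error (SE).

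A pair of neighbouring members, chosen because one led in glia and the other in a subtype of neuron, is shown first. Kcnj9 (chromosome 1, 172320501 to 172329318, minus strand) encodes an inward rectifier opened by G proteins, and Kcnj10 (chromosome 1, 172341210 to 172374085, plus strand) encodes an inward rectifier of glia. The genes lie 11891 bases apart on opposite strands (GRCm38, GENCODE M21). The 250 bases before each start are from RefSeq (GRCm38.p6), written 5′ to 3′ on the strand of the gene, with the letters TATAAA in capitals where they occur.
Kcnj9, chr1:172329323-172329572, minus strand: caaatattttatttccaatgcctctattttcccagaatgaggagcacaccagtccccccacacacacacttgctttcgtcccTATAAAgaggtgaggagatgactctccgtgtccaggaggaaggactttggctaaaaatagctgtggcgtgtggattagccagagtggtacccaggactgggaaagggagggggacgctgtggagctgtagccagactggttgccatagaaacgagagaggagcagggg
Kcnj10, chr1:172340960-172341209, plus strand: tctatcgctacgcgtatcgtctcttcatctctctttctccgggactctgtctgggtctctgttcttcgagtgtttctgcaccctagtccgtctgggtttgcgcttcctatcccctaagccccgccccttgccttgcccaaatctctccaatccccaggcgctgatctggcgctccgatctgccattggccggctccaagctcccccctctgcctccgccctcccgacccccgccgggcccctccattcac
The Kcnj9 window held the motif 168 bases before the start and had a G and C content of 52.0%. The Kcnj10 window did not hold it and had a G and C content of 62.0%. On both strands, the motif was in 12.4% of the 32851 promoter windows of the table and in 3.26% of the 92 windows of the 67 members found there.

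To find which cells carry these transcripts, the UMIs of all 92 members were summed. They made up 1.503%, 1.31% and 1.42% of all UMIs in neuron-like nuclei (1.41% ± 0.0990, SD, n = 3 libraries). The highest library of the other 8 classes was at 0.600%. NMSC-like nuclei (0.506% ± 0.0823, SD, n = 3) and glial cluster 10 (0.493% ± 0.0604, SD, n = 3) came next and overlapped each other. SGC-like nuclei held 0.283%, 0.314% and 0.323%, and macrophage-like nuclei had the lowest mean (0.156% ± 0.0492, SD, n = 3). Kcnip4, an auxiliary subunit of A-type channels gave 27.8% of the member UMIs of neuron-like nuclei, a share that also carries its length of 1135 kb.

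**Figure D1:**
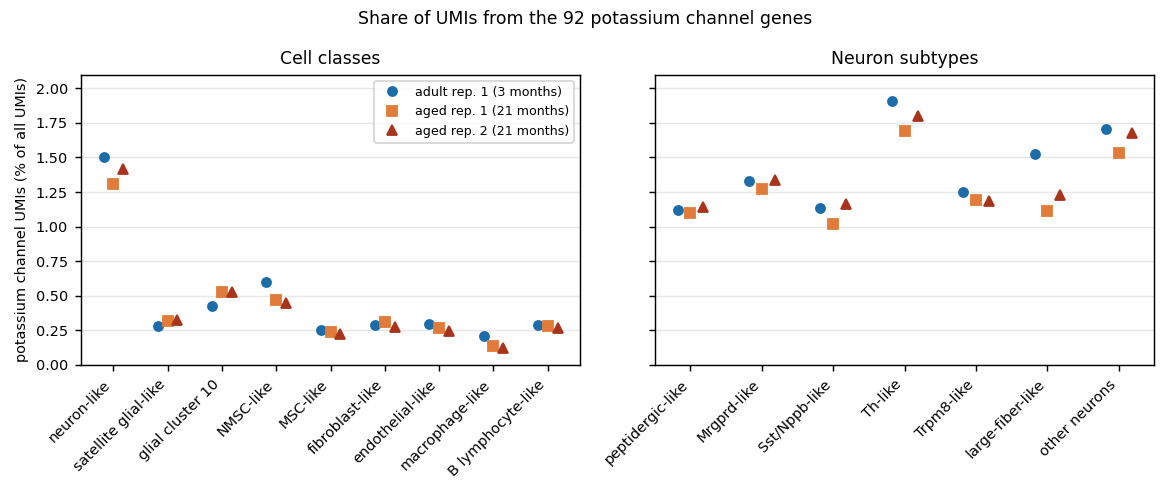
Share of all UMIs (%) that came from the 92 potassium channel genes, in 9 cell classes and 7 groups of neuron-like nuclei, with 1 point per library. Neuron-like nuclei lie at 1.31% to 1.503%, above every library of the other classes.

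Each class was compared with the mean of the others with the library as a block. Of the members, 60 passed the filter on low counts and were tested among 13846 genes. In neuron-like nuclei 53 of the 60 were higher and 3 were lower, against 35.3% and 25.7% of all genes. A member that is high in 1 class can pass the filter through that class alone, as may be so for Kcng2, Kcng3, Kcnj6 and Kcnk12, which were far lower in every other class than in neuron-like nuclei, so this count describes the 60 tested members and not all 92. The same limit holds for the counts of every class and subtype below, and for the fold changes and adjusted p of such genes in the group where they are high. With no filter, all 44 results of genes named for a class kept their direction and their side of the threshold. These genes had already passed the filter, so that result cannot show how the members left out by it would count. Over all classes together, 227 of 540 tests of members were called with the filter and 276 of 828 without it. The share of all genes called went from 32.2% to 16.8%. Over the 77 members with 100 or more UMIs, the class with the highest mean level was neuron-like for 46, in every library for 38 of them. Neuron-like nuclei held 1916658 of the 2111376 member UMIs, so a member can reach 100 UMIs through them alone. The share of all genes that were highest in neuron-like nuclei was not computed. The 3 lower members were Kcnj10, Kcnk5 and Kcnn4, which were all higher in SGC-like nuclei.

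Members from several families led the neuron-like nuclei. Kcnc2, a fast voltage-gated channel, was at 258, 265 and 328 CPM and 4.79 higher than the mean over other classes (SE 0.188, adjusted p = 2.26e-19). Kcnip4 was at 4475, 3248 and 3834 CPM and 4.72 higher (SE 0.141, adjusted p = 5.88e-22). Kcnh7, a channel of the ERG type, was at 1648, 1382 and 1527 CPM and 4.69 higher (SE 0.163, adjusted p = 1.67e-20). Inward rectifiers opened by G proteins, through which transmitters quiet neurons, were among them too. Kcnj3 was at 104, 125 and 116 CPM and 4.701 higher (SE 0.176, adjusted p = 8.62e-20), and Kcnj6 was at 27.6, 24.8 and 39.8 CPM and 4.72 higher (SE 0.2804, adjusted p = 1.56e-14). Kcnk12, a two-pore subunit, was at 19.1, 31.8 and 43.0 CPM and 4.66 higher (SE 0.338, adjusted p = 1.22e-12). Kcnma1, the pore of the large-conductance channel opened by calcium and voltage, was at 474, 520.0 and 523 CPM (3.14, SE 0.159, adjusted p = 9.53e-17). For all 7 of these genes every library of neuron-like nuclei lay above every library of the other classes.

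In SGC-like nuclei, the glia that wrap neuronal somas, 16 members were higher and 7 lower, 26.7% and 11.7% of those tested against 22.3% and 14.1% of all genes. Kcnj10, through which glia take up potassium, was at 151, 176 and 162 CPM in SGC-like nuclei, 143, 133 and 133 in glial cluster 10 and 117, 91.5 and 65.3 in NMSC-like nuclei. These glia lay above the free RNA (29.0, 25.8 and 17.1 CPM) in every library, while neuron-like nuclei were at 6.83, 7.35 and 3.804 CPM. The fold change was 3.67 in SGC-like nuclei (SE 0.156, adjusted p = 3.5e-18), 3.197 in glial cluster 10 (SE 0.206, adjusted p = 1.82e-13) and 2.45 in NMSC-like nuclei (SE 0.274, adjusted p = 3.51e-08). Kcnj16, whose product joins that of Kcnj10 in mixed channels, was at 44.5, 58.3 and 46.03 CPM in SGC-like nuclei (5.49, SE 0.309, adjusted p = 1.05e-14) and at 25.3, 32.3 and 23.5 CPM in glial cluster 10 (4.29, SE 0.506, adjusted p = 1.3e-07). In NMSC-like nuclei, where Kcnj10 was high, Kcnj16 had 0, 1 and 0 UMIs.

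Kcnh8, a voltage-gated channel of the ELK type, was shared by all 3 of these glial classes. It was at 708, 724 and 584 CPM in SGC-like nuclei (4.49, SE 0.193, adjusted p = 4.04e-18), at 748, 656 and 809 CPM in glial cluster 10 (4.47, SE 0.206, adjusted p = 5.5e-17) and at 494, 589.8 and 529 CPM in NMSC-like nuclei (3.93, SE 0.231, adjusted p = 3.13e-14). The SGC-like range overlapped with each of the other 2, and every library of glial cluster 10 lay above every NMSC-like library. Kcnn4, a channel of intermediate conductance opened by calcium, was at 132, 119 and 92.5 CPM in SGC-like nuclei (3.15, SE 0.166, adjusted p = 4.83e-16). Kcnma1 was at 83.5, 137 and 186 CPM there (0.96, SE 0.1899, adjusted p = 0.000136), below its free RNA at 273, 212 and 217 CPM. In glial cluster 10, 17 members were higher and 1 was lower, against 12.8% and 6.01% of all genes.

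**Figure D2:**
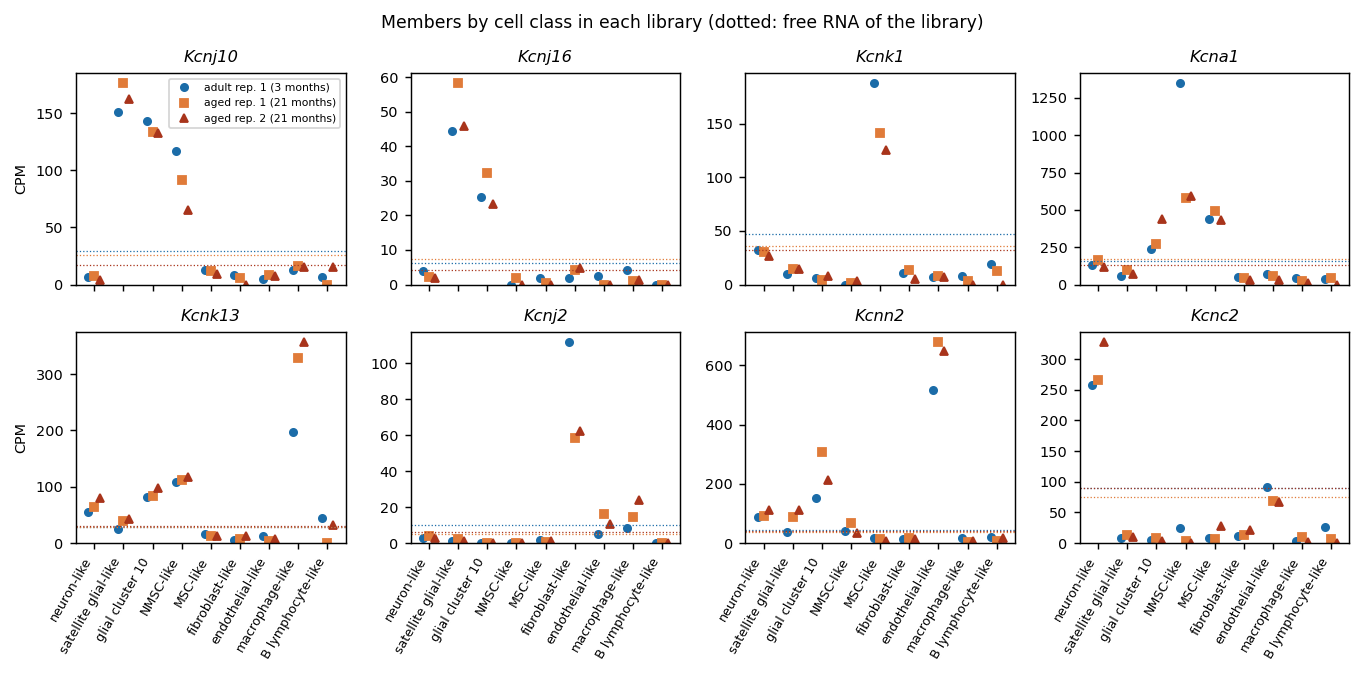
CPM of 8 members in the 9 classes, with 1 point per library and dotted lines for the free RNA of each library. Kcnj10 is high in 3 glial classes, Kcnj16 is low in NMSC-like nuclei, and Kcnk1, Kcnj2 and Kcnn2 each stand out in a different class.

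Several Kcna genes, whose low-threshold voltage-gated channels are known from the zones beside the nodes of Ranvier, were higher in Schwann cell classes, though not only there. In NMSC-like nuclei 12 members were higher and 10 lower, against 11.2% and 5.46% of all genes. Kcna1 was at 1348, 580.5 and 591 CPM there (3.24, SE 0.190, adjusted p = 3.1e-14), Kcna6 was at 737, 619.7 and 650.0 CPM (3.55, SE 0.191, adjusted p = 4.62e-15), and Kcna2 was at 1131, 552 and 510.0 CPM (2.57, SE 0.161, adjusted p = 1.41e-13). For Kcna1 and Kcna2 the NMSC-like libraries lay above all others, while Kcna6 overlapped with glial cluster 10, where it was at 596, 854 and 978 CPM (3.91, SE 0.172, adjusted p = 2.1e-17). Kcna6 was also higher in SGC-like nuclei (2.096, SE 0.182) and was not called higher in MSC-like nuclei. In MSC-like nuclei 7 members were higher and 14 lower, against 19.9% and 13.1% of all genes. Kcnk1, a weak inwardly rectifying leak channel, led there at 188, 141 and 125 CPM (4.37, SE 0.176, adjusted p = 7.35e-19), above every library of the other classes. Kcna1 was at 442, 490.0 and 434 CPM in MSC-like nuclei (2.43, SE 0.178, adjusted p = 1.46e-12), and Kcna2 was at 366, 352 and 304 CPM (1.51, SE 0.155, adjusted p = 2.6e-09). Kcnj12, an inward rectifier, was at 12.4, 38.9 and 16.4 CPM (2.81, SE 0.503, adjusted p = 5.15e-05), with free RNA at 18.1, 19.2 and 20.7 CPM. It was also called higher in NMSC-like and neuron-like nuclei, whose means of 34.26 and 28.91 CPM were above that of MSC-like nuclei. Kcna1 and Kcna2 were also higher in glial cluster 10 (1.79, SE 0.208, and 1.397, SE 0.171) and in neuron-like nuclei (0.6019, SE 0.194, and 0.87, SE 0.156).

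Fibroblast-like nuclei had 14 members higher and 14 lower, against 20.7% and 10.6% of all genes. Kcnj2, a strong inward rectifier that holds the resting potential, was at 112, 58.2 and 62.5 CPM (6.97, SE 0.383, adjusted p = 1.55e-13). Kcnj2 lies 38195 bases from Kcnj16 on chromosome 11, and in SGC-like nuclei, where Kcnj16 led, Kcnj2 was at 1.23, 2.395 and 0.9898 CPM. Kcnt2, a channel opened by sodium, was at 219.8, 325 and 338 CPM in fibroblast-like nuclei (3.59, SE 0.186, adjusted p = 3.57e-16), and Kcnmb2, an auxiliary subunit of the Kcnma1 channel, was at 46.3, 102 and 122 CPM (3.26, SE 0.243, adjusted p = 1.8e-12). The free RNA of Kcnmb2 was at 53.05, 45.3 and 51.59 CPM, above the fibroblast-like value in the adult library. The fibroblast-like libraries lay above those of the other classes for Kcnj2 and Kcnt2, and for Kcnmb2 the neuron-like libraries, at 138, 148 and 174 CPM, were higher still.

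In endothelial-like nuclei 7 members were higher and 9 lower, against 14.7% and 9.44% of all genes. Kcnn2, a small-conductance channel opened by calcium, was at 516, 679 and 648 CPM (4.16, SE 0.177, adjusted p = 2.93e-18), with no overlap with another class. The calls of Kcnk6 (2, 8 and 2 UMIs, 4.04, SE 0.894) and Kcnj2 (2, 10 and 3 UMIs, 3.804, SE 1.02) rest on few UMIs.

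Macrophage-like nuclei had 4 members higher and 27 lower, against 23.5% and 18.4% of all genes, and 15 of 24 voltage-gated subunits were among the lower ones. Kcnk13, a leak channel known from microglia, was at 198, 329 and 358 CPM (3.38, SE 0.175, adjusted p = 3.11e-16). The other 3 were Kcnk6 at 28.9, 21.0 and 27.8 CPM (5.797, SE 0.584), Kcnj2 (4.61, SE 0.781) and Kcnn4 (1.44, SE 0.277). In B lymphocyte-like nuclei 2 members were higher and 10 lower, against 11.6% and 15.1% of all genes. Kcnq5, a subunit of the M-channel, which dampens repetitive firing in neurons, was at 1132, 1490.0 and 1245 CPM (2.96, SE 0.278, adjusted p = 6.37e-10), and Kcnk10, a leak channel opened by stretch, had 9, 2 and 5 UMIs (2.06, SE 0.552).

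**Figure D3:**
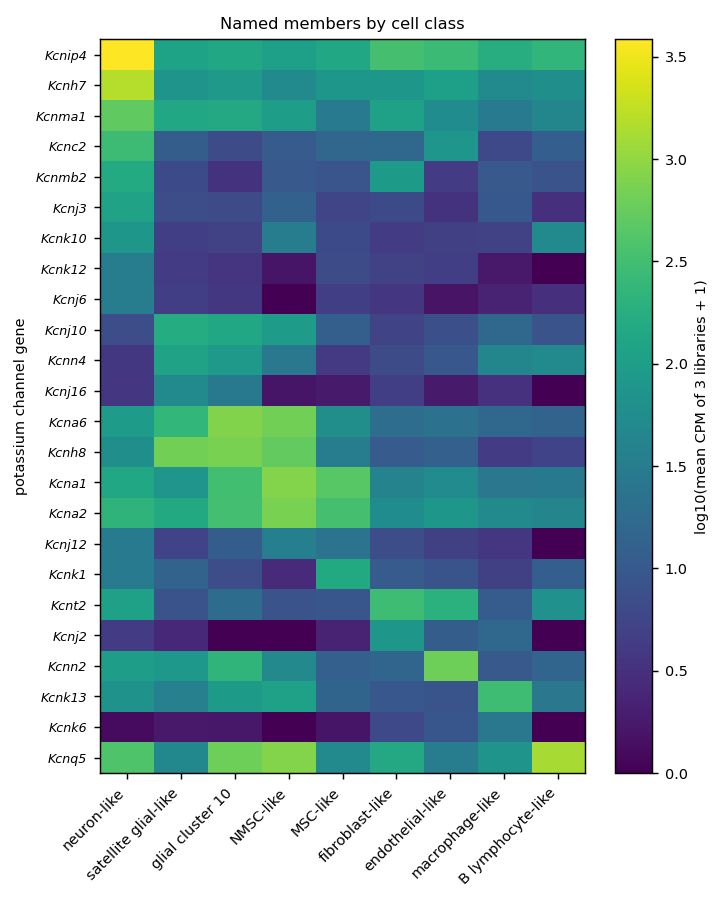
Mean level of the members named for the cell classes, as log10(mean CPM of the 3 libraries + 1), with genes in rows and classes in columns. Colours are to be read along a row: Kcnip4 is highest in neuron-like, Kcnj10 in SGC-like and Kcnk1 in MSC-like nuclei.

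The other genes of potassium handling were read from a list of 37 partner subunits, pumps and cotransporters, of which 28 were tested. In neuron-like nuclei 21 were higher and 6 lower, and in SGC-like nuclei 8 were higher and 8 lower, against the 35.3% and 25.7% and the 22.3% and 14.1% of all genes given above. Atp1b2, a subunit of the sodium-potassium pump, was at 22.4, 54.6 and 42.6 CPM in SGC-like nuclei (2.99, SE 0.247, adjusted p = 1.81e-11). Cntnap2, which gathers Kcna channels on axons, was at 5430.0, 3807 and 3949 CPM in neuron-like nuclei (4.68, SE 0.141, adjusted p = 6.81e-22).

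To see how neurons differ among themselves, neuron-like nuclei were divided into 6 marker-defined subtypes and a remainder with no subtype name, and each was compared with the mean of the others. Here 72 members were tested among 17049 genes. Every group had members called in both directions. Higher and lower members numbered 28 and 15 in peptidergic-like neurons (24.8% and 14.3% of all genes), 24 and 24 in Mrgprd-like (18.9% and 15.5%), 16 and 33 in Sst/Nppb-like (12.1% and 15.4%), 23 and 25 in Th-like (18% and 15.5%), 21 and 22 in Trpm8-like (12.4% and 10.3%), 26 and 25 in large-fiber-like (27.7% and 20.3%) and 34 and 20 in the remainder (27.7% and 21%).

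Trpm8-like neurons carry the cold receptor gene they are named for. Kcnk9, an acid-sensitive leak channel, was at 123, 137 and 142 CPM in them (6.74, SE 0.2399, adjusted p = 5.9e-15). Kcnj9, whose promoter is shown above, was at 18.6, 18.6 and 34.5 CPM (5.26, SE 0.317, adjusted p = 3.8e-11). It was not tested between classes, and outside neurons it had 0, 22 and 7 UMIs in macrophage-like nuclei (0, 24.3 and 9.74 CPM), where the age difference was not called. Kcnn3, a small-conductance channel opened by calcium, was at 98.6, 140.2 and 118 CPM (4.51, SE 0.204, adjusted p = 3.23e-13). Kcnh8, which also led in glia, was at 635, 523 and 734 CPM (4.38, SE 0.1904, adjusted p = 1.69e-13). For each of these 4 genes the Trpm8-like libraries did not overlap with another group of neurons.

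Th-like neurons carry the marker of low-threshold C-fiber mechanoreceptors, and 52.7% of their member UMIs came from Kcnip4. Kcnd3, a pore of the A-type current that Kcnip4 modulates, was at 2652, 1714 and 2175 CPM (4.27, SE 0.1303, adjusted p = 2.64e-16). Kcnj6 was at 168, 220.3 and 239.6 CPM (4.69, SE 0.153, adjusted p = 5.84e-16). Kcnq1 was at 28.2, 78.2 and 77.95 CPM (3.02, SE 0.267, adjusted p = 7.46e-09). The Th-like libraries lay above every other group for these 3 genes. Kcnn3 (3.02, SE 0.215) and Kcnj12 (2.15, SE 0.105) were higher as well. Of 10 two-pore channels, 1 was higher and 7 were lower, against 18% and 15.5% of all genes.

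In Mrgprd-like neurons, which are non-peptidergic nociceptors, a leak channel and an auxiliary subunit led. Kcnab1, an auxiliary subunit of Kcna channels, was at 897, 724 and 751 CPM (3.01, SE 0.136, adjusted p = 1.58e-13), and Kcnk13 was at 161, 182 and 208 CPM (2.98, SE 0.128, adjusted p = 6.74e-14). Kcnk12 was at 52.7, 82.3 and 102 CPM (2.66, SE 0.103) and overlapped with Sst/Nppb-like neurons at 40.9, 44.8 and 78.8 CPM, whereas Kcnab1 and Kcnk13 did not overlap with another group. Kcnk18, a leak channel regulated by calcium, was at 31.1, 26.1 and 26.98 CPM (2.49, SE 0.192, adjusted p = 8.42e-10). It was not tested between classes, since it did not pass the filter there. Kcnt1, a channel opened by sodium, was at 323, 363 and 377 CPM (2.19, SE 0.0827, adjusted p = 8.91e-15), and Kcnj11, the pore of the ATP-sensitive channel, was at 11.8, 9.66 and 6.62 CPM (2.75, SE 0.292). Kcnj11 overlapped with large-fiber-like neurons, where it was higher too (6.15, 8.47 and 11.1 CPM, 2.498, SE 0.332).

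Sst/Nppb-like neurons, known for itch, had 15 of 25 voltage-gated subunits lower and 4 higher, against 15.4% and 12.1% of all genes. Kcnn1, a small-conductance channel, was at 81.8, 86.7 and 97.8 CPM (2.302, SE 0.156, adjusted p = 1.6e-10). Kcnt1 was at 181, 223 and 249.8 CPM (1.16, SE 0.106). Kcnn4 (10, 7 and 18 UMIs, 2.41, SE 0.394) and Kcnj16 (17, 3 and 10 UMIs, 2.12, SE 0.419) were called on few UMIs. Kcnk9 was called with 0, 20 and 2 UMIs (2.23, SE 0.603), and without aged replicate 1 its fold change was -0.57.

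Large-fiber-like neurons carry markers of myelinated mechanoreceptors and proprioceptors. In them 12 of 25 voltage-gated subunits were higher and 8 lower, against 27.7% and 20.3% of all genes. Kcnc1, a fast channel of high-rate firing, was at 217, 172 and 189 CPM (3.01, SE 0.135, adjusted p = 1.18e-13). Kcna1 was at 318, 482 and 469 CPM (2.84, SE 0.189, adjusted p = 6.44e-11). Neither overlapped with another group of neurons. Among silent subunits, 2 of 9 were higher and 6 lower, against the same shares of all genes. The 2 were Kcns1 at 50.7, 89.4 and 75.4 CPM (3.23, SE 0.1598, adjusted p = 6.15e-13) and Kcng4 at 6.27, 24.1 and 26.4 CPM (2.92, SE 0.346). Kcnj14, an inward rectifier, had 7, 21 and 12 UMIs (2.89, SE 0.594).

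Peptidergic-like neurons, the nociceptors that release neuropeptides, had 5 of 9 silent subunits higher and 0 lower, against 24.8% and 14.3% of all genes. Kcnmb2 was at 521, 511 and 723 CPM (4.03, SE 0.236, adjusted p = 1.95e-11), and it was also high in Trpm8-like neurons at 658, 858 and 667 CPM (4.35, SE 0.239). Kcnj2 was at 8.56, 11.03 and 9.07 CPM (3.79, SE 0.354), above every other group. The silent subunits Kcns2 (3.73, SE 0.237) and Kcng1 (3.43, SE 0.242) followed. In the neurons with no subtype name, Kcnh5, a channel of the EAG type, was at 75.5, 105 and 80.2 CPM (4.097, SE 0.159, adjusted p = 2.8e-14), and Kcnt2 (3.59, SE 0.177, overlapping with peptidergic-like neurons, where it was also higher at 3.404, SE 0.1798), Kcnq3 (3.33, SE 0.145) and Kcnk10 (3.27, SE 0.117) were also higher. Kcns3, a silent subunit, was higher in 3 groups, the remainder (1.73, SE 0.0998), peptidergic-like (0.85, SE 0.108) and Sst/Nppb-like neurons (0.74, SE 0.156).

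**Figure D4:**
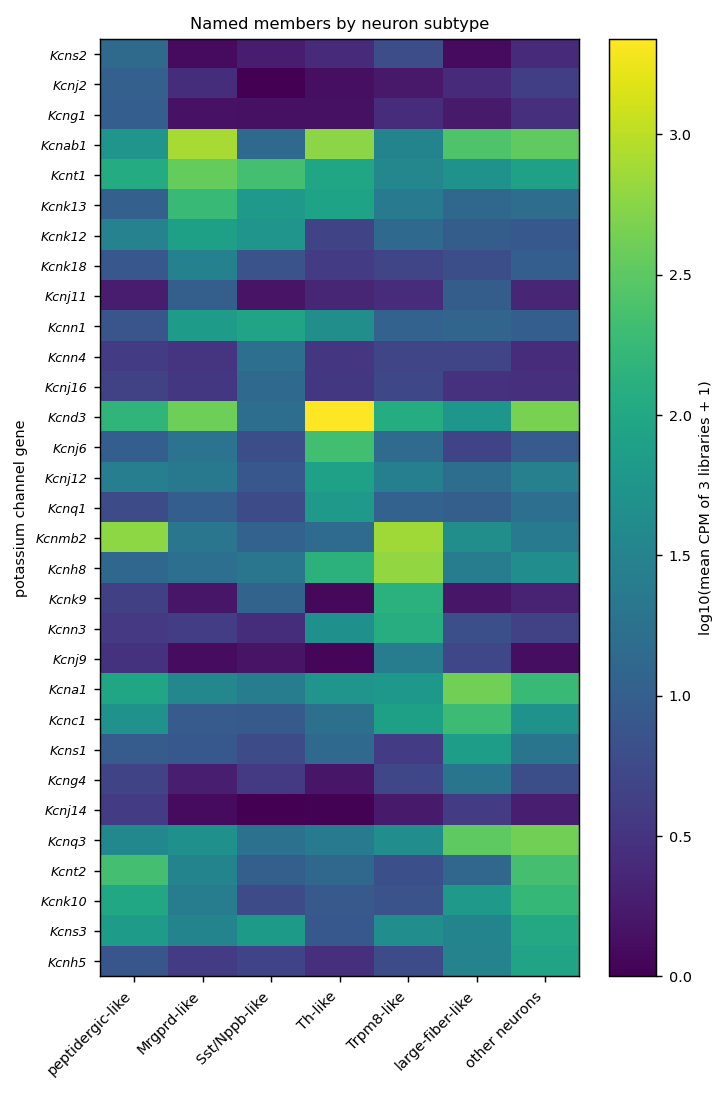
Mean level of the members named for the neuron subtypes, as log10(mean CPM of the 3 libraries + 1), with genes in rows and subtypes in columns. Read along a row, Kcnk9 and Kcnj9 are highest in Trpm8-like, Kcnd3 and Kcnj6 in Th-like, and Kcns1 in large-fiber-like neurons.

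To ask what differed with age, the adult library was compared with the 2 aged libraries within each class, with the spread of the single adult library taken as that of the aged ones. Over the 9 classes, edgeR made 38 calls in 365 tests of members, where it called 8.59% of all genes, and DESeq2 made 9, where it called 1.52%. The 9 were Kcnn2 in SGC-like nuclei, Kcnk4 in neuron-like, Kcna1, Kcna2 and Kcnq5 in NMSC-like, Kcnq5 in glial cluster 10 and in macrophage-like, Kcnip4 in MSC-like and Kcnk5 in fibroblast-like nuclei. The median share of Malat1, an abundant nuclear RNA, was 5.27% of UMIs in adult nuclei and 1.52% and 1.59% in aged nuclei. On plain CPM the median gene was 0.01 to 0.22 higher in aged libraries on the log2 scale, and changes are relative to that shift. The part of these differences between libraries in the results was not tested.

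In SGC-like nuclei 5 members were higher and 5 lower in aged libraries, 8.47% each of the 59 tested against 5.47% and 7.99% of all genes. Kcnj10, the leading potassium uptake gene of these glia, did not pass the test at 151, 176 and 162 CPM (0.02, SE 0.137, adjusted p = 0.957). Kcnn2 was at 38.9, 88.6 and 113 CPM and higher in both aged libraries (1.21, SE 0.173, adjusted p = 2.65e-10), with free RNA at 43.3, 37.6 and 38.98 CPM. Kcnma1 was at 83.5, 137 and 186 CPM (0.78, SE 0.146, adjusted p = 3.27e-06), below its free RNA at 273, 212 and 217 CPM. Kcnab2 rose as well (0.47, SE 0.164, adjusted p = 0.0338). The free RNA of Kcnab2, at 341.5, 423.8 and 456.8 CPM, was also higher in both aged libraries, and its mean in SGC-like nuclei was below 107 CPM. Kcnk4 and Kcnk2, leak channels opened by stretch, fell by 1.6 (SE 0.374, adjusted p = 0.000409) and 0.78 (SE 0.198, adjusted p = 0.00143). Their free RNA was lower in both aged libraries too, at 16.31, 6.123 and 5.835 CPM for Kcnk4 and 65.87, 59.21 and 52.45 CPM for Kcnk2. The mean of Kcnk2 in SGC-like nuclei was 35.02 CPM. Kcnn4 was called lower as well (-0.44, SE 0.143, adjusted p = 0.0202). Its mean in SGC-like nuclei was 114.5 CPM, with free RNA at 16.88, 13.85 and 12.79 CPM. Kcnip4 was called lower at 139, 87.6 and 129.7 CPM (-0.54, SE 0.143, adjusted p = 0.00259), but without aged replicate 1 the difference was -0.10. The free RNA of Kcnip4 was far higher, at 1517, 1396 and 1595 CPM. Adult and aged SGC-like nuclei lay mostly in different clusters: clusters 3, 14 and 22 held 550, 1530 and 1021 adult nuclei, and cluster 38 held 28 adult nuclei and 385 and 196 aged ones. Depth differed as well, with a median of 3108, 7272 and 7904 UMIs per SGC-like nucleus.

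In neuron-like nuclei 3 members were higher and 3 lower, 3.61% each of the 83 tested against 1.74% and 7.42% of all genes. The make-up of this class differed between libraries, with 538, 127 and 136 Th-like and 598, 496 and 172 large-fiber-like nuclei, and its part in these differences was not tested. Kcnk4 was at 14.5, 4.004 and 4.75 CPM (-1.86, SE 0.254, adjusted p = 3.54e-11), and in free RNA it was at 16.3, 6.12 and 5.83 CPM, lower in both aged libraries as well. Its gene overlaps Catsperz on the same strand (chromosome 19, 6923966 to 6934515, minus strand), and reads of the pair may not be told apart. Both aged libraries lay below the adult library for Kcnk4 in all 9 classes and all 7 groups of neurons, with calls in neuron-like and SGC-like nuclei and in Mrgprd-like (-2.57, SE 0.381), large-fiber-like (-2.63, SE 0.368) and unnamed neurons (-1.88, SE 0.245). Kcnk12 was at 19.1, 31.8 and 43.0 CPM (0.84, SE 0.232, adjusted p = 0.00559), with free RNA at 10.8, 17.5 and 22.97 CPM. Kcnh6, a channel of the ERG type, was at 12.4, 18.2 and 29.4 CPM (0.81, SE 0.236, adjusted p = 0.0102), with free RNA at 7.996, 8.42 and 13.6 CPM, and its difference was 1.24 without aged replicate 1 and 0.55 without aged replicate 2. Kcng3, a silent subunit, rose too (0.73, SE 0.232, adjusted p = 0.0238). Kcnk5, at 3.24, 1.46 and 1.46 CPM (-1.27, SE 0.339, adjusted p = 0.00389), and Kcnj16, at 3.99, 2.24 and 1.97 CPM (-1.04, SE 0.317, adjusted p = 0.0158), fell. Free RNA held 22.2, 10.7 and 8.07 CPM of Kcnk5 and 6.35, 7.31 and 4.22 CPM of Kcnj16, more than the neuron-like nuclei of the same library.

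The age difference was then compared between neuron-like and SGC-like nuclei. Of 81 members, 4 had a lower value in neurons, 4.94% against 1.13% of all genes, and 0 a higher one, against 0.57%, with 4 higher at an unadjusted p under 0.05 in edgeR. They were Kcnn2 (-1.14, SE 0.238, adjusted p = 0.000297), Kcnj16 (-1.13, SE 0.287, adjusted p = 0.00821), Kcnk5 (-1.06, SE 0.2901, adjusted p = 0.0198) and Kcnma1 (-0.76, SE 0.223, adjusted p = 0.0431). DESeq2 called 0 of the 81, with 7 at an unadjusted p under 0.05.

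In NMSC-like nuclei 1 of 25 members was higher and 4 were lower in aged libraries (4% and 16%), against 4.91% and 5.51% of all genes. Kcna1, at 1348, 580.5 and 591 CPM, fell (-1.27, SE 0.213, adjusted p = 2.97e-07) while its free RNA was at 156, 173 and 132 CPM. Kcna2, at 1131, 552 and 510.0 CPM, fell as well (-1.15, SE 0.222, adjusted p = 1.4e-05). Kcnq5 was at 335, 1086 and 1085 CPM and higher with age (1.63, SE 0.268, adjusted p = 1.35e-07), with free RNA at 164, 174 and 158 CPM. Kcnab2 was lower too (-1.76, SE 0.501). Its free RNA was at 341.5, 423.8 and 456.8 CPM, while its mean in NMSC-like nuclei was below 107 CPM. The adult library held 51 NMSC-like nuclei, most of them in cluster 17.1, whereas clusters 17.3 and 17.5 held 5 and 0 adult nuclei. In glial cluster 10 Kcnq5 was the one member called of 32, against 1.35% of all genes higher and 2.15% lower. It was at 368, 857 and 669 CPM (0.91, SE 0.203, adjusted p = 0.000723).

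In MSC-like nuclei, which formed 1 cluster, 3 of 48 members were higher and 4 lower (6.25% and 8.33%), against 5.09% and 6.64% of all genes. Kcnip4 was at 204, 101 and 98.5 CPM (-1.13, SE 0.181, adjusted p = 2.91e-08), with free RNA at 1517, 1396 and 1595 CPM. Kcnc1 was at 30.1, 4.92 and 3.52 CPM (-2.82, SE 0.503, adjusted p = 9.9e-07), with free RNA at 71.1, 45.6 and 41.5 CPM. Kcnip2 fell by 1.68 (SE 0.448, adjusted p = 0.00323). For Kcnip4 and Kcnc1 the nuclei held less than the free RNA of the same library. The free RNA of Kcnip2 was at 71.96, 55.39 and 61.95 CPM, while its mean in MSC-like nuclei was below 31.9 CPM. Kcnk1, which led in this class, was called lower too (-0.57, SE 0.176, adjusted p = 0.0141). Its mean in MSC-like nuclei was 151.4 CPM, with free RNA at 47.53, 35.56 and 32.53 CPM. Kcnj12, at 12.4, 38.9 and 16.4 CPM with free RNA at 18.1, 19.2 and 20.7 CPM, was called higher (1.21, SE 0.385, adjusted p = 0.0199), but without aged replicate 1 the difference was 0.4003. Kcns3 (1.18, SE 0.337, adjusted p = 0.00699) and Kcna6 (0.75, SE 0.263, adjusted p = 0.0399) rose. The mean of Kcns3 in MSC-like nuclei was 38.14 CPM, near its free RNA at 37.5, 43.63 and 42.89 CPM.

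In fibroblast-like nuclei 2 of 55 members were higher and 2 lower (3.64% each), against 2.28% and 2.96% of all genes. The ages filled their clusters unequally: cluster 18 held 343 adult and 56 and 49 aged nuclei, and cluster 33 held 207 adult and 122 and 62 aged nuclei. Kcnk5, a leak channel opened by alkaline pH, was at 283, 116 and 146 CPM (-1.203, SE 0.211, adjusted p = 0.000142). Its free RNA was at 22.2, 10.7 and 8.07 CPM. Kcnj2 fell by 0.98 (SE 0.253, adjusted p = 0.0128), with free RNA at 9.77, 5.29 and 6.15 CPM, and Kcnab1 (1.34, SE 0.263, adjusted p = 0.000716) and Kcnmb2 (1.18, SE 0.266, adjusted p = 0.00339) rose. Free RNA was at 53.05, 45.3 and 51.59 CPM for Kcnmb2. For Kcnab1 it was at 185.2, 169.8 and 176.5 CPM, above the fibroblast-like mean of 139.7 CPM. In macrophage-like nuclei 1 of 27 members was higher and 4 were lower (3.7% and 14.8%), against 6.18% and 5.77% of all genes. Kcnk13, at 198, 329 and 358 CPM, rose (0.86, SE 0.224, adjusted p = 0.0137), while its free RNA was at 27.99, 28.04 and 30.1 CPM. Kcnq5 was at 173, 28.7 and 11.1 CPM (-2.98, SE 0.415, adjusted p = 4.6e-05), and its free RNA, at 164, 174 and 158 CPM, was near the adult value and above both aged ones. Kcnq1 had 24, 1 and 12 UMIs (-3.502, SE 0.689, adjusted p = 0.00168), with a difference of -2.56 without aged replicate 1 and -6.36 without aged replicate 2. Kcnab1 fell by 1.904 (SE 0.378, adjusted p = 0.00179), and its mean in macrophage-like nuclei was below its free RNA given above. Macrophage-like clusters 13.3 and 13.4 held 3 and 0 adult nuclei.

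In endothelial-like nuclei edgeR called 0 of 23 members, against 1.11% of all genes higher and 2.2% lower, with 5 at an unadjusted p under 0.05, and DESeq2 called 0, with 0 at that limit. In B lymphocyte-like nuclei edgeR called 0 of 13, against 0.798% of all genes higher and 0.695% lower, with 1 at an unadjusted p under 0.05, and DESeq2 called 0, with 1 at that limit.

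**Figure D5:**
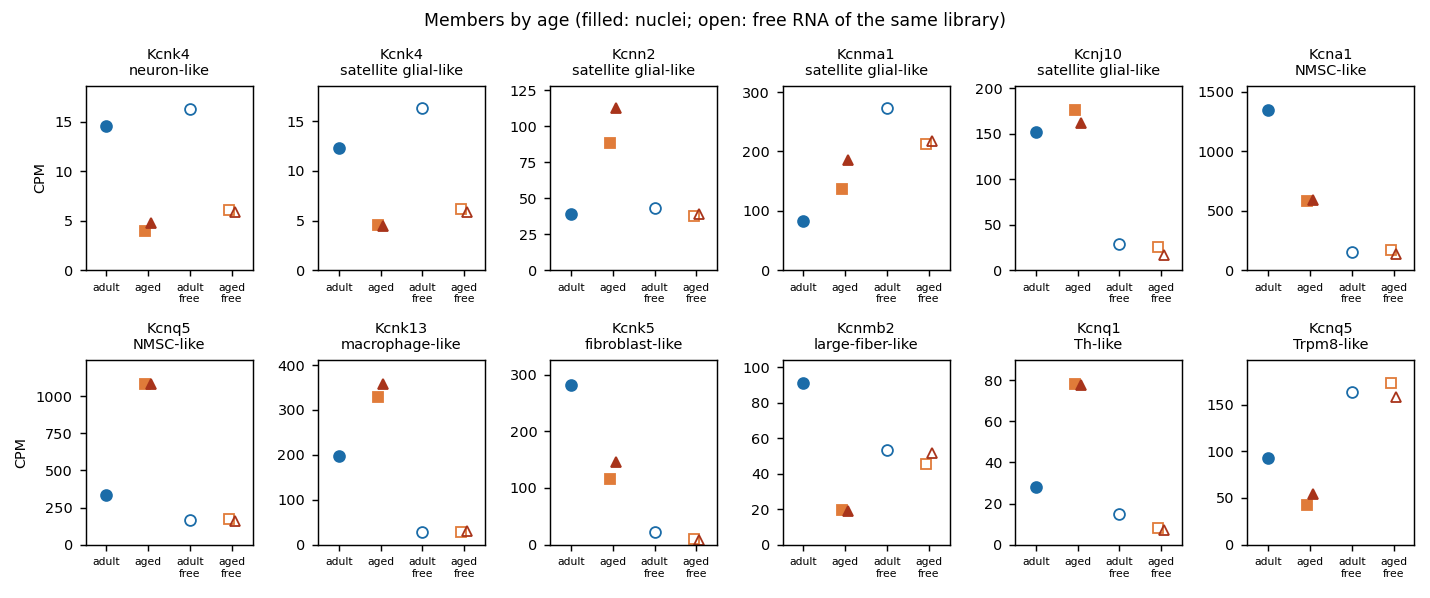
CPM of members in 12 pairs of gene and group of nuclei, with filled points for nuclei and open points for the free RNA of the same library. Kcnk4 is lower in the aged libraries in nuclei and in free RNA alike, and Kcnn2 in SGC-like nuclei is higher in both aged libraries while its free RNA is not.

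Within the neuron subtypes edgeR made 42 age calls in 437 tests of members, where it called 6.81% of all genes, and DESeq2 made 13, where it called 1.53%, 11 of them in large-fiber-like neurons. Of the 42, 25 were in large-fiber-like neurons (9 higher and 16 lower of 68, against 11.4% and 10.2% of all genes). Kcnmb2 was at 91.01, 19.4 and 18.9 CPM (-2.45, SE 0.196, adjusted p = 8.5e-21), with free RNA at 53.05, 45.3 and 51.6 CPM. Kcnip1, an auxiliary subunit of A-type channels, was at 2089, 689 and 848 CPM (-1.65, SE 0.168, adjusted p = 8.93e-15). The rises included Kcng4 at 6.27, 24.1 and 26.4 CPM (1.79, SE 0.2896, adjusted p = 4.86e-07) and Kcnc4 (0.96, SE 0.197, adjusted p = 7.59e-05). Nuclei low in Malat1 were 36.8%, 54% and 55.8% of this subtype in the 3 libraries, and without them 14 calls were made in place of 25, while over all subtypes the share of all genes called went from 6.81% to 5.57%. The ages filled the clusters of this subtype unequally. Cluster 27, with 3.86% of Malat1, held 366 adult and 126 and 45 aged nuclei, and cluster 19, with 0.423%, held 234 adult and 371 and 127 aged nuclei. Within cluster 27, 9 of 60 members were lower, against 4.34% of all genes lower and 0.846% higher, Kcnmb2 (-2.15, SE 0.231) and Kcnip1 (-1.27, SE 0.141) among them. Within cluster 19, 2 of 53 were lower, against 1.57% of all genes lower and 0.37% higher. In neither cluster did a tested member pass as higher (edgeR, with 5 higher at an unadjusted p under 0.05 in cluster 19 and 4 in cluster 27). Kcnmb2 (-0.72, SE 0.647, adjusted p = 0.711), Kcnip1 (-0.6028, SE 0.152, adjusted p = 0.0565) and Kcng4 (0.6008, SE 0.2597, adjusted p = 0.341) did not pass in cluster 19, and Kcng4 was not tested in cluster 27. Kcnc4 did not pass in cluster 19 (0.1038, SE 0.181, adjusted p = 0.866) or cluster 27 (0.84, SE 0.2796, adjusted p = 0.0618).

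In Mrgprd-like neurons 5 of 67 members were higher and 4 lower in aged libraries, against 2.95% and 7.02% of all genes, and DESeq2 called 1, Kcnk4. Cluster 30 of this subtype, with 0.366% of Malat1, held 105 adult and 210 and 97 aged nuclei, and cluster 11, with 2.40%, held 446 adult and 168 and 93 aged nuclei. Their median UMIs were 2759.5 and 3240. Cluster 7, with a median of 32820.5 UMIs and 2.96% of Malat1, held 353 adult and 162 and 143 aged nuclei. Cluster 39, with a median of 14769.5 UMIs, held 89 adult and 34 and 39 aged nuclei. Kcnq1 fell (-1.22, SE 0.304, adjusted p = 0.00154), as did Kcna1 (-0.82, SE 0.207, adjusted p = 0.00198), whose difference was -0.49 without aged replicate 2. Kcnh6 (0.78, SE 0.241, adjusted p = 0.0182) and Kcnk12 (0.69, SE 0.207, adjusted p = 0.0141) rose. Kcnt2 was called higher (0.74, SE 0.224, adjusted p = 0.0147), but its difference was -0.0245 with nuclei thinned to 1000 UMIs. In Th-like neurons Kcnq1 was the one member called of 62, against 0.255% of all genes higher and 1.35% lower, and DESeq2 called 0, with 5 at an unadjusted p under 0.05. Kcnq1 was at 28.2, 78.2 and 77.95 CPM in Th-like neurons (1.32, SE 0.285, adjusted p = 0.0202), while its free RNA was at 14.8, 8.14 and 7.08 CPM. Of the Th-like clusters, cluster 8, the largest, held 332 adult and 70 and 87 aged nuclei, with a median of 23715 UMIs. Cluster 23 held 102 adult and 12 and 9 aged nuclei (median 2356 UMIs), and cluster 24 held 114 adult and 47 and 41 aged nuclei (median 5417). Kcnq1 fell in the unnamed neurons (-0.89, SE 0.237, adjusted p = 0.032), by 0.49 without aged replicate 1, and the difference between subtypes was not tested.

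In Trpm8-like neurons 2 members were higher and 2 lower of 56 in edgeR, against 0.402% and 2.29% of all genes, and DESeq2 called 0, with 1 at an unadjusted p under 0.05. Kcnh6 (1.16, SE 0.327, adjusted p = 0.0229) and Kcng3 (1.05, SE 0.319, adjusted p = 0.043) rose. Kcnq5, at 92.6, 42.6 and 53.9 CPM (-1.13, SE 0.255, adjusted p = 0.0015), and Kcnh1 (-1.15, SE 0.289, adjusted p = 0.00689) fell. In the unnamed neurons 1 of 71 members was higher and 2 were lower, against 0.637% and 4.38% of all genes. The higher one was Kcnv1, a silent subunit (1.01, SE 0.234, adjusted p = 0.0124). DESeq2 called 1 of the 3, Kcnk4. In peptidergic-like neurons edgeR called 0 of 71 members, against 0.24% of all genes higher and 1.78% lower, with 12 at an unadjusted p under 0.05, and DESeq2 called 0, with 2 at that limit. In Sst/Nppb-like neurons edgeR called 0 of 42, against 0.00999% of all genes higher and 0.519% lower, with 5 at an unadjusted p under 0.05, and DESeq2 called 0, with 2 at that limit.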

How the data were processed

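The authors prepared nuclear libraries by PIP-seq, a droplet method with templates of gel particles, and counted them with PIPseeker, and the submitters' processing notes name the mm10 build. The authors deposited unnormalized UMI counts of each gene for every barcode, with 167664164, 95647106 and 69045987 UMIs in adult replicate 1 and aged replicates 1 and 2. The members, gene lists and alternatives were chosen with earlier results of these data known, and groups came from the sample labels.

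Barcodes with more than 1000 genes were clustered with scanpy 1.11.5 (3000 variable genes without any member, 40 components, 15 neighbors, resolution 2, sub-clusters at 0.5) and named from marker lists. Clusters with markers of several classes were left out as possible doublets, no doublet caller was run, and nuclei needed 2 UMIs of their class's markers. The limits of 2 UMIs and of 40 nuclei per cluster, and leaving 1 macrophage sub-cluster unnamed, were chosen after seeing the data. Counts were summed per class and library and tested with edgeR 4.0.16 (TMM, filterByExpr, quasi-likelihood) in R 4.3.3, with DESeq2 1.42.0 as an alternative. The tests were checked on simulated data: 96.2% of genes changed by 1 on the log2 scale were recovered in the neuron-like class contrast and 54% in the neuron-like age contrast. Each contrast had 6 false calls. The simulation had a single fixed dispersion and changed only genes with higher counts. It covered the deepest class alone, so it does not give the rates for the other classes. Named genes were those with the largest fold change (up to 3 per class, 6 in neuron-like nuclei and 4 per subtype) or, for age, the up to 3 smallest adjusted p per direction, and a few chosen genes whatever their result. The age differences of Kcnn4 in SGC-like and Kcnk1 in MSC-like nuclei are given outside this rule. They are not in the counts of named differences. Genes overlapping on a strand may share reads. Results of some genes are not reported here.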

Additional observations from a re-analysis of the deposited data

Results flagged for a closer look

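For 4 members, the aged minus adult difference in neuron-like nuclei differed from that in SGC-like nuclei by the test of the interaction term, each with the lower value in neurons. The log2 difference was -1.14 for Kcnn2, -1.13 for Kcnj16, -1.06 for Kcnk5 and -0.76 for Kcnma1. The interaction had 1 residual degree of freedom, and DESeq2 and the sums thinned to 1000 UMIs per nucleus each called 0 of these.

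Classes with under 20 nuclei in a library entered no test, and some members were higher there than in any library of the 9 tested classes. Kcnn4, the channel known from red blood cells, had 140 UMIs in nuclei with markers of cycling or erythroid cells (339, 394 and 679 CPM). In mural-like nuclei Kcnt2 had 146 UMIs (636, 594 and 954 CPM). The mural-like nuclei numbered 57, 17 and 4, and the cycling or erythroid-like nuclei 11, 28 and 45.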

How the results depend on the processing

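The 227 calls of members by class and 336 by subtype stayed within 1.5 times under DESeq2, other size factors, no low-count filter, a stricter marker gate, over 2000 genes per nucleus and without low-Malat1 nuclei. With nuclei thinned to 1000 UMIs they were 143 and 184, with fewer genes tested. Leaving out 1 library gave 174 to 241 and 290 to 335 calls. The 38 age calls within classes (365 tests, 8.59% of all genes called) became 9 under DESeq2 (365, 1.52%), 19 in one fit over all groups (648, 3.04%) and 9 when thinned (195, 3.74%). The 42 within subtypes (437, 6.81%) became 13 (437, 1.53%), 13 (532, 1.65%) and 14 (230, 3.5%). The 4 interaction calls became 0 under DESeq2 and 0 when thinned. The cause was not tested. Kcnt2 with age in Mrgprd-like neurons turned to -0.0245 when thinned, and Kcnk9 in Sst/Nppb-like neurons ranged from -0.5739 (without aged replicate 1) to 2.974 as each library was left out. Chosen after seeing the data, keeping classes with 3 or more nuclei gave 200 class calls, and splitting large-fiber-like neurons by cluster gave 2 and 9 calls in place of 25, which were 14 without low-Malat1 nuclei. Without an aged replicate, the age comparison has no residual degrees of freedom and gave values only: 17 of 32 named class differences moved beyond the spread without aged replicate 1 and 14 without aged replicate 2, and 19 and 9 of 20 named subtype differences, with none reversed. No paired analysis was possible because the adult and aged groups share only replicate number 1. A missing call does not show that a gene did not differ, and the smallest class tested had 22 nuclei in a library (B lymphocyte-like, aged replicate 2).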
